A study of Homo sapiens with 36 samples.

Results

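JUNB sites bound in the NEG subpopulation of SUM-229PE cells, and at most weakly counted in the POS subpopulation, are described here together with the acetylation of histone H3 at lysine 27 (H3K27ac) around them. Counts per site in each JUNB library were scaled to the library's total over all sites and given as CPM, the usual depth-scaled count. A site was taken where its mean over the 2 NEG libraries was at least 5 CPM and its mean over the 2 POS libraries was at most 0.5 CPM. Of 146555 JUNB sites, 1408 met both limits (0.961%), and the mirrored rule found 1803 sites bound in POS only. The sites were selected on these JUNB values, which are therefore given as a description with no test.

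SUM-229PE is a triple-negative breast cancer line from a pleural effusion. It was sorted for the surface proteins EpCAM and CD49f (the integrin alpha-6 chain) into cells lacking both (NEG) and cells carrying both (POS), so both come from the same parental line. H3K27ac libraries were compared between NEG (n = 2) and POS (n = 3) under DMSO, and between the acute arm, 30 nM trametinib for 24 hours, and DMSO in NEG (n = 2 each) and POS (n = 3 each). The chronic arm set day 14 of 10 nM trametinib against day 0 in NEG and in POS (n = 2 each). No day 14 group without drug is among the samples, so drug and time in culture cannot be told apart there. POSR1 and POSR2 (n = 2 each) were set against POS under DMSO, and the labels say neither what these populations are nor whether they were under drug. JUNB was profiled under DMSO (n = 2 each), so JUNB under trametinib was not measured. The labels do not state that replicates are separate cultures, so p-values speak only to how these libraries scatter, and that scatter could be technical.

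JUNB is a subunit of AP-1, a family of paired leucine-zipper transcription factors that bind a short palindromic element, mostly at distal enhancers. AP-1 subunits are induced and stabilised by signalling through MEK and ERK, the kinase pair that trametinib acts on by inhibiting MEK. H3K27ac is laid down by p300 and CBP at active promoters and enhancers, and is lost when these are switched off.

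The 1408 sites were well counted in both NEG JUNB libraries and close to the counting floor in POS. Their median was 7.68 CPM in NEG replicate 1 (range 2.72 to 49.0) and 7.75 CPM in NEG replicate 2 (2.36 to 59.8), against 0.335 CPM in POS replicate 1 (at most 0.894) and 0.409 CPM in POS replicate 2 (at most 0.819). Over all JUNB sites, the medians of the 4 libraries lay between 3.02 and 3.48 CPM. The median site held 65 and 46 counts in the NEG libraries and 3 and 2 counts in the POS libraries, of library totals between 4884516 and 8947351.

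Absence of JUNB in POS was not shown for most sites. In the 2 POS libraries together, 25 sites had no count, 380 had 1 to 3 counts and 1003 had more than 3. Among those 1003, the NEG mean was a median of 19.99 times the POS mean, with a range of 10.2 to 178. The NEG replicates lay within 2-fold of each other at 1354 sites.

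Sites at the limits differed little from those left out. With the POS limit met, the 5 sites just inside the NEG limit had means of 5.00 to 5.02 CPM and the 5 just outside had 4.99 CPM. With the NEG limit met, the 5 just inside the POS limit had means of 0.494 CPM and the 5 just outside had 0.503 to 0.512 CPM. In each single library, both limits were met by 714 of the 1408 sites.

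Strong sites were a minority, with 102 reaching a NEG mean of 20 CPM. The highest, chr16:16119516-16119717, had 49.0 and 59.8 CPM in the NEG libraries, against 0.112 and 0.819 CPM in the POS libraries. It lay in no H3K27ac region of any of the 6 H3K27ac tables. The next, chr12:24192088-24192289, had 48.5 and 55.6 CPM in NEG and 0.447 and 0.205 CPM in POS. At chr10:44353090-44353291, with 42.8 and 59.6 CPM in NEG, the POS libraries held a single count between them. The other 7 of the 10 highest sites had NEG means from 40.0 to 50.2 CPM and POS means from 0.102 to 0.438 CPM. Among the 10 highest, 7 lay in an H3K27ac region of the NEG and POS table. The site chr1:201531459-201531660 lay in none there, but in a region of the acute NEG table with a mean of 138 CPM under DMSO. The sites chr16:16119516-16119717 and chr10:44353090-44353291 lay in none of either table, so strong JUNB binding was also found without a listed H3K27ac region. All coordinates are hg19, as the deposited files give them. Genes and sequences at the sites were not analysed here.

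The sites were unevenly spread over the genome. They made up 2.89% of the JUNB sites on chromosome 21, 2.54% on chromosome 13, 2.504% on chromosome X and 2.37% on chromosome 10, against 0.260% on chromosome 17 and 0.331% on chromosome 9. POS-only sites made up 1.25% of the JUNB sites on chromosome 21, 3.74% on chromosome 13, 2.00% on chromosome X and 1.52% on chromosome 10. On chromosomes 17 and 9 they made up 0.894% and 2.22%. Chromosome 13 thus held a larger share of POS-only than of NEG-only sites. Of the 1408, 521 (37.0%) had another NEG-only site within 50 kb, and among POS-only sites 603 (33.4%) had another POS-only site that near.

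A few segments held many of them. In 9 windows of 1 Mb there were 10 or more such sites, 132 in all. Between 44 and 45 Mb of chromosome 10, 31 of 59 JUNB sites qualified, with a median NEG mean of 9.69 CPM. None of the 28 other sites in that window had a POS mean above its NEG mean, and their medians were 3.33 CPM in NEG and 0.447 CPM in POS. The next windows were 68 to 69 Mb of chromosome 6 (18 of 40), 84 to 85 Mb of chromosome 10 (17 of 42), 67 to 68 Mb of chromosome 6 (13 of 29), 45 to 46 Mb of chromosome 10 (12 of 61) and 128 to 129 Mb of chromosome 12 (11 of 35). None of the 9 windows held a POS-only site. Copy number in NEG and POS cells was not tested, since input libraries do not appear among the counted columns.

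JUNB sites that missed the rule but lay near a NEG-only site leaned the same way. Within 50 kb were 6336 other JUNB sites, of which 58.3% had a NEG mean over 2 times the POS mean and 10.7% had the reverse. Over all JUNB sites these shares were 25.7% and 26.9%. Sites within 50 kb may share an enhancer or a segment, so they are not independent of each other.

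H3K27ac was followed in 6 separate tables, each a union of regions 1001 bases wide (end minus start) called in the libraries it compares. A site was counted as inside a region when at least 50% of its 201 bases lay there. Of the 1408 sites, 895 (63.6%) lay in a region of at least 1 table and 513 in none. Beside NEG libraries the sites were often covered. A region of the NEG and POS comparison under DMSO held 671 sites (47.7%), one of the acute NEG comparison 789 (56.0%) and one of the chronic NEG comparison 414 (29.4%), against 34.3%, 25.9% and 18.2% of all JUNB sites.

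In tables without NEG libraries the same sites were rarely covered. Regions of the acute POS comparison held 25 sites (1.78%), those of the chronic POS comparison 15 (1.07%) and those of POSR against POS 80 (5.68%), against 30.4%, 27.1% and 32.1% of all JUNB sites. POS-only sites showed the mirror image, with 61.5%, 60.8% and 63.1% in those 3 tables and 7 and 3 sites in the acute and chronic NEG tables. A region enters a table when enrichment is called in a library of that table, so presence in a table is itself a readout of the mark. Absence from a table does not by itself show that the mark is lacking. The site chr1:201531459-201531660, given above, was in a region of the acute NEG table but in none of the NEG and POS table.

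**Figure D1:**
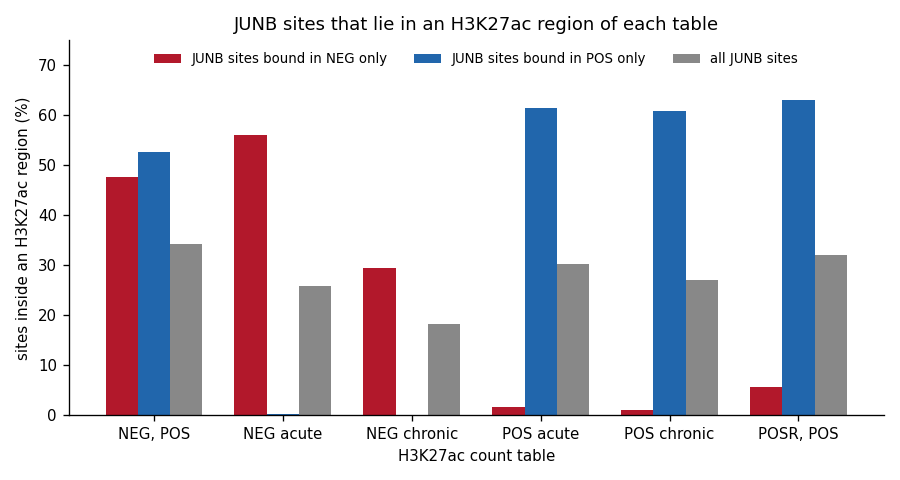
Bars give the percentage of JUNB sites that lie inside an H3K27ac region of each of the 6 count tables, for sites bound in NEG only (red), sites bound in POS only (blue) and all JUNB sites (grey). NEG-only sites reach 56.0% in the acute NEG table and stay at or under 5.68% in the tables of POS and POSR libraries.

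Sites with more JUNB were more often inside an H3K27ac region. Over 4 equal groups of sites, from the lowest to the highest NEG JUNB mean, the share inside a region of the NEG and POS table was 40.6%, 44.9%, 46.0% and 59.1% (352 sites each). Sites inside a region had a median NEG JUNB mean of 8.31 CPM (quartiles 6.21 and 13.0), and the 737 outside had 7.23 CPM (5.91 and 9.88). The site's middle lay a median of 267 bases from the region's middle, against 243 bases for other JUNB sites in regions.

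Under DMSO, H3K27ac at these sites was high in NEG and near the counting floor in POS. The 659 regions that hold a NEG-only site had median levels of 13.3 and 13.7 CPM in the NEG libraries, against 0.760, 1.67 and 1.27 CPM in the POS libraries (library totals corrected with TMM factors). These medians rest on 75 and 77 counts per region in NEG and 6, 8 and 8 counts in POS. Both NEG medians lie far above all 3 POS medians. In bulk samples, fewer cells carrying the mark and less of the mark per cell cannot be told apart.

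**Figure D2:**
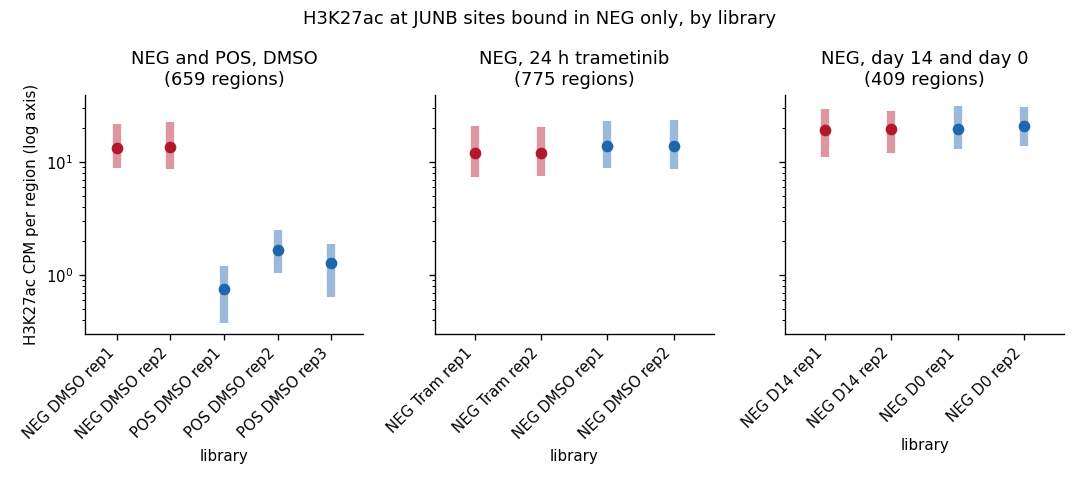
Points are the median H3K27ac level per library, in CPM on a log axis, over regions that hold a NEG-only JUNB site, and bars span the first to the third quartile. In the left panel NEG libraries sit at 13.3 and 13.7 CPM and POS libraries at 0.760 to 1.67 CPM, while in NEG the trametinib libraries (12.1 CPM) and the day 14 libraries (19.5 and 19.7 CPM) lie close to their DMSO and day 0 libraries.

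Of the 659 regions, all tested, 658 were called higher in NEG and 0 lower by edgeR's quasi-likelihood test at an adjusted p of 0.05. Over all 57023 regions tested, 38.0% were called higher and 38.6% lower. The median log2 fold change was 3.59, against 0.04 over all regions. The H3K27ac libraries were not used by the rule, but they compare the same subpopulations that chose the sites, so this count stands as a description of the sites and nothing more is read from it. The mirrored POS-only sites gave 0 of 932 regions higher in NEG and 925 lower.

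The region that was not called, chr3:93944242-93945243, had 5.87 and 9.75 CPM in NEG, against 5.32, 6.26 and 7.63 CPM in POS. Its values overlap between the groups (log2 fold change 0.29 ± 0.28 SE, adjusted p = 0.342 by edgeR), and it was singled out after its values were seen. JUNB and H3K27ac thus part there, with JUNB counted in NEG and the mark at like levels in both.

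Among regions at or above the median level with values that do not overlap, the 6 with the largest fold changes had few counts in POS. At chr6:68339390-68340391, which holds a site among the 10 highest for JUNB, H3K27ac was 122 and 130.0 CPM in the NEG libraries, against 0.760, 1.04 and 0.795 CPM in the POS libraries (log2 fold change 7.19 ± 0.28 SE). In the same 1 Mb window, chr6:68599079-68600080 had 49.1 and 43.1 CPM in NEG, against 0, 0.417 and 0.318 CPM in POS (7.64 ± 0.32). These are neighbours on chromosome 6, in the window with 18 NEG-only sites.

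The other 4 lay elsewhere. At chr10:44383371-44384372, in the densest window, levels were 77.7 and 92.0 CPM in NEG, against 0.127, 1.88 and 0.477 CPM in POS (6.90 ± 0.31). At chr4:61548565-61549566, which holds 2 NEG-only sites, they were 104 and 97.2 CPM in NEG, against 0.380, 2.09 and 0.477 CPM in POS (6.85 ± 0.29). The regions chr18:14469518-14470519 and chr13:66886050-66887051 had between 25.7 and 28.3 CPM in NEG and at most 0.318 CPM in POS. In all 6, every NEG library was above every POS library, which the choice of regions required. Their adjusted p was at most 1.55e-19 (edgeR).

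H3K27ac regions near a NEG-only site also leaned to NEG. Within 50 kb of a NEG-only site lay 2914 tested H3K27ac regions that hold none, of which 2089 (71.7%) were higher in NEG and 422 (14.5%) lower, with a median log2 fold change of 1.70. The shares over all regions were 38.0% higher and 38.6% lower, as above. The comparison is again between the subpopulations that chose the sites, and neighbouring regions are not independent, so these shares are a description.

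With trametinib for 24 hours, H3K27ac was lower at a larger share of these regions than over the table as a whole. A region is listed through a call in either arm, and the sites were chosen on JUNB under DMSO. Which arm's call listed each region was not counted, so the shares describe listed regions. Of 775 regions in the acute NEG table, 299 (38.6%) were lower and 148 (19.1%) higher than under DMSO, against 19.3% lower and 17.2% higher over all 54409 regions tested. At 2-fold or more, 137 were lower and 45 higher, and over all regions 6.23% were lower and 4.95% higher. The median log2 fold change was -0.23 (quartiles -0.79 and 0.32), against 0.04 over all regions. The libraries' median levels were 12.1 and 12.1 CPM with trametinib and 13.9 and 13.9 CPM with DMSO, so the typical region shifted little and the called regions moved in both directions. DESeq2, which called fewer, found 183 lower and 67 higher of 754 with an adjusted p. The shares that DESeq2 called over all regions are not given here, so these counts show only which direction had more calls.

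Regions that hold JUNB sites but no NEG-only site were lower in 28.0% of 32838 cases, and regions with no JUNB site in 5.02% of 20796. Regions with JUNB were also split into 5 equal groups by mean level. From the lowest to the highest group, NEG-only regions were lower in 36.6%, 32.3%, 39.8%, 46.2% and 38.2%, against 16.1%, 23.5%, 29.8%, 33.5% and 36.8% of the other JUNB regions. The gap was widest in the lowest group and narrowest in the highest, and it was not tested.

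The 6 named losses were chosen among regions whose trametinib and DMSO values do not overlap. At chr9:8365939-8366940 H3K27ac was 9.29 and 9.68 CPM with trametinib, against 43.9 and 46.0 CPM with DMSO (log2 fold change -2.24 ± 0.16 SE, adjusted p = 3.32e-42 by edgeR). At chr12:128413033-128414034, in a window rich in NEG-only sites, it was 11.3 and 9.06 CPM with trametinib, against 46.5 and 45.2 CPM with DMSO (-2.17 ± 0.16, adjusted p = 7.13e-41 by edgeR). At chr16:12416776-12417777 it was 8.08 and 6.80 CPM with trametinib, against 31.4 and 36.3 CPM with DMSO (-2.18 ± 0.18).

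The other named losses had the same form. At chr12:115593322-115594323 the mark was 7.68 and 6.38 CPM with trametinib, against 29.8 and 29.9 CPM with DMSO. At chr10:49842323-49843324 it was 10.9 and 10.1 CPM with trametinib, against 36.0 and 43.6 CPM with DMSO. At chr3:102902834-102903835 it was 10.3 and 6.59 CPM with trametinib, against 27.02 and 36.3 CPM with DMSO. In these 3 the log2 fold changes were -2.08, -1.92 and -1.90. Their JUNB sites had NEG means of 23.9, 13.0 and 24.5 CPM.

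Gains were fewer, and the named ones were of like size. At chr12:117960479-117961480 H3K27ac was 33.3 and 36.0 CPM with trametinib, against 8.34 and 8.56 CPM with DMSO (2.03 ± 0.17, adjusted p = 7.44e-31 by edgeR). At chr6:66609811-66610812 it was 30.9 and 25.7 CPM with trametinib, against 7.15 and 7.57 CPM with DMSO (1.94 ± 0.18). Another pair of regions on chromosome 6 also rose. At chr6:104753932-104754933 the level was 28.5 and 26.4 CPM with trametinib, against 6.75 and 9.36 CPM with DMSO, and at chr6:104665443-104666444 it was 47.9 and 37.3 CPM with trametinib, against 13.5 and 12.5 CPM with DMSO. The remaining gains, chr9:128307363-128308364 and chr16:66186700-66187701, had log2 fold changes of 1.59 and 1.51. The share of regions higher, 19.1%, was near the 17.2% over all regions and the 19.5% of JUNB regions without a NEG-only site. The gains are thus not particular to these sites.

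At day 14 of 10 nM trametinib the losses again outnumbered the gains at NEG-only sites. Here too, which arm's call listed each region was not counted. Of 409 regions in the chronic NEG table, 137 (33.5%) were lower and 79 (19.3%) higher than at day 0, against 23.8% lower and 24.8% higher over all 28179 regions tested. At 2-fold or more, 56 were lower and 31 higher, and over all regions 6.81% were lower and 9.83% higher. The median log2 fold change was -0.20, against -0.00077 over all regions. Median levels were 19.5 and 19.7 CPM at day 14 and 19.6 and 20.8 CPM at day 0, on medians of 37 and 41 counts per region at day 14 and 69 and 54 at day 0. DESeq2 called 71 lower and 45 higher of the 409, and its shares over all regions are again not given.

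Here the share lower exceeded that of other JUNB regions in each of 5 groups by level. From the lowest to the highest group NEG-only regions were lower in 29.8%, 25.2%, 34.8%, 41.4% and 66.7%, against 14.1%, 17.7%, 22.3%, 30.4% and 42.7% of the other JUNB regions. The highest group held 24 NEG-only regions, of which 16 were lower. Over all levels, JUNB regions without a NEG-only site were lower in 25.5% and higher in 24.2% of 22586.

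The largest named loss at day 14 had replicates that differed in size. At chr2:109945948-109946949 H3K27ac was 28.4 and 13.9 CPM at day 14, against 108 and 95.5 CPM at day 0 (log2 fold change -2.29 ± 0.16 SE, adjusted p = 1.00e-20 by edgeR). A pair of neighbouring regions, chrX:65852781-65853782 and chrX:65895793-65896794, both fell. The first had 10.5 and 14.9 CPM at day 14, against 49.6 and 48.5 CPM at day 0, and the other 17.4 and 21.6 CPM at day 14, against 65.5 and 64.7 CPM at day 0. The first of these holds 2 NEG-only sites.

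A further 3 losses met the naming rule. At chrX:9865499-9866500 the level was 13.2 and 11.1 CPM at day 14, against 46.0 and 41.2 CPM at day 0. At chr11:71673042-71674043 it was 11.1 and 18.3 CPM at day 14, against 51.3 and 55.8 CPM at day 0. At chr6:68393045-68394046, whose JUNB site is among the 10 highest, it was 14.2 and 19.7 CPM at day 14, against 59.9 and 52.0 CPM at day 0. Their log2 fold changes were -1.86, -1.84 and -1.72. The naming rule required that day 14 and day 0 values do not overlap.

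Of the gains at day 14 that met the naming rule, the first by size was at a site that had also gained at 24 hours. At chr16:66186642-66187643 H3K27ac was 43.7 and 62.0 CPM at day 14, against 14.8 and 12.3 CPM at day 0 (1.95 ± 0.18, adjusted p = 5.94e-15 by edgeR). At chr2:62308357-62309358 it was 53.2 and 59.1 CPM at day 14, against 16.5 and 17.3 CPM at day 0 (1.74 ± 0.17). At chr3:157631651-157632652 it was 44.2 and 37.0 CPM at day 14, against 12.8 and 15.4 CPM at day 0 (1.54 ± 0.19). The remaining gains, chr12:27338014-27339015, chr10:64342443-64343444 and chr12:71221876-71222877, had log2 fold changes from 1.34 to 1.52.

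The acute and chronic NEG comparisons share no library, and 340 NEG-only sites were tested in both. Of these, 70 were lower in both and 38 higher in both, while 8 were lower at 24 hours and higher at day 14 and 8 the reverse. The 70 are 50.0% of the 140 sites lower at 24 hours and 66.0% of the 106 lower at day 14. The 38 are 50.0% of the 76 higher at 24 hours and 55.9% of the 68 higher at day 14, against 55.1% and 47.9%. Among sites called in both, 87.1% of 124 moved the same way, and among other JUNB sites 90.2% of 6768 did.

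Calls under trametinib were set out by the JUNB level of the sites, as a description. With the sites split into 4 equal groups by NEG JUNB mean, the share in a region lower at 24 hours was 29.3%, 34.0%, 42.6% and 49.7% from the lowest group to the highest. At day 14 these shares were 20.2%, 30.1%, 38.8% and 47.1%. The shares in higher regions did not follow that order, at 19.7%, 22.8%, 14.7% and 19.3% at 24 hours and 24.0%, 24.3%, 11.7% and 16.3% at day 14. The median log2 fold change went the same way as the losses, at -0.10, -0.17, -0.35 and -0.40 at 24 hours. This is an order over sites, not over samples, and both treatment arms rest on the same 2 JUNB libraries. The NEG JUNB mean also chose the sites, and the level of H3K27ac was not held fixed across the groups, so no test was made.

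**Figure D3:**
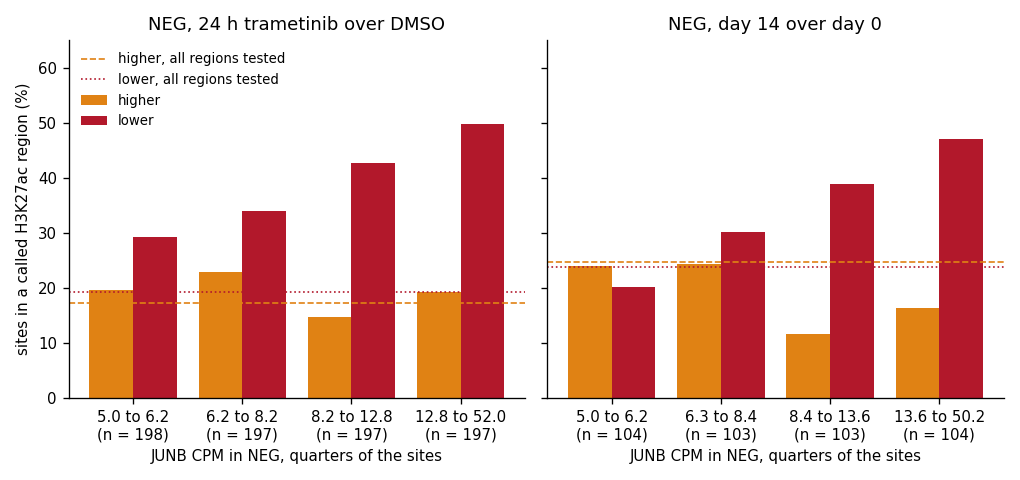
Bars show the percentage of NEG-only sites whose H3K27ac region was called higher (orange) or lower (red) under trametinib in NEG cells, in 4 equal groups by NEG JUNB mean in CPM, and lines mark the shares over all regions tested. The share lower climbs to 49.7% at 24 hours and 47.1% at day 14 in the highest group.

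Calls in the 6 windows richest in NEG-only sites are given as a description. Their regions are neighbours, and differences between windows were not tested. Over all regions tested, 19.3% were lower and 17.2% higher at 24 hours, and 23.8% and 24.8% at day 14. Between 68 and 69 Mb of chromosome 6, 7 of 13 regions with a NEG-only site were lower at 24 hours and 0 higher, and at day 14 3 of 4 were lower. Between 84 and 85 Mb of chromosome 10, 5 of 12 were lower at 24 hours and 0 higher. Between 44 and 45 Mb of chromosome 10 the 15 regions split into 7 lower and 4 higher at 24 hours, with log2 fold changes from -1.81 to 0.70. At day 14 the 11 regions there were 6 lower and 2 higher. Between 128 and 129 Mb of chromosome 12, 4 of 5 were lower at 24 hours. The window of 67 to 68 Mb on chromosome 6 had 1 lower and 1 higher of 7 at 24 hours. At day 14 it had 2 lower and 1 higher of 6. The window of 45 to 46 Mb on chromosome 10 had 3 lower and 2 higher of 6 at 24 hours, and 1 lower and 1 higher of 4 at day 14. Under DMSO, every tested region with a NEG-only site in the 6 windows named above was higher in NEG than in POS.

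In POS cells few of the sites had a listed region. Of 24 regions in the acute POS table, 8 were lower with trametinib and 5 higher, against 26.0% lower and 26.7% higher over all 50345 tested. None met the level set for naming, a mean at or above the median of all tested regions, 10.9 CPM, together with values that did not overlap. Library medians were 4.56, 3.93 and 3.51 CPM with trametinib and 4.33, 4.47 and 4.44 CPM with DMSO.

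The 5 gains were small in absolute level in all but chrX:10417704-10418705, and all 5 regions carry the name of a trametinib library's call. They were named after their values were seen. The largest, chr11:38035927-38036928, had 6.17, 4.10 and 3.79 CPM with trametinib, against 1.38, 1.22 and 3.58 CPM with DMSO (1.17 ± 0.37, adjusted p = 0.00553 by edgeR). The others were chr15:38591909-38592910, chr5:178692504-178693505, chr3:10035284-10036285 and chrX:10417704-10418705, with log2 fold changes from 0.33 to 1.08. The region on chromosome X had 23.3, 19.1 and 21.9 CPM with trametinib, against 18.7, 11.4 and 20.3 CPM with DMSO, and these values overlap. The count of gains depended on single libraries, at 1 without trametinib replicate 1 and at 3 without trametinib replicate 3, without DMSO replicate 1 or without DMSO replicate 3. It was 3 with RLE scaling or total counts and 2 with DESeq2.

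Among the 8 losses in POS, the largest was at a region that also fell in NEG. At chr12:115593304-115594305 H3K27ac was 1.21, 1.88 and 1.34 CPM with trametinib, against 10.8, 11.2 and 10.6 CPM with DMSO (-2.90 ± 0.27, adjusted p = 2.54e-16 by edgeR). The values of the groups lie far apart. The other 7 had log2 fold changes from -1.90 to -0.93 and levels of at most 8.90 CPM in any library. All 8 regions carry the name of a DMSO library's call, so they entered the table through the arm where they are high.

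The chronic POS table covered 15 NEG-only regions, of which 9 were higher and 3 lower at day 14, against 39.5% higher and 38.2% lower over all 44304 tested. Of the 9 gains, 8 carry the name of a day 14 library's call. The largest, chr6:104665910-104666911, had 9.04 and 9.02 CPM at day 14, against 0.178 and 0.598 CPM at day 0 (4.64 ± 0.57, adjusted p = 4.91e-13 by edgeR). It overlaps a region that rose at 24 hours in NEG cells, given above, and was singled out after its values were seen. Library medians over the 15 regions were 5.17 and 6.27 CPM at day 14 and 1.96 and 3.59 CPM at day 0.

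The 3 losses, named after their values were seen, were chr12:115593336-115594337, chr5:152538624-152539625 and chr11:71673039-71674040. The first had 0.554 and 1.18 CPM at day 14, against 7.49 and 8.38 CPM at day 0 (-3.16 ± 0.49). At chr5:152538624-152539625 the level was 2.21 and 2.94 CPM at day 14, against 10.4 and 7.18 CPM at day 0 (-1.81 ± 0.36). At chr11:71673039-71674040 it was 3.51 and 5.29 CPM at day 14, against 6.60 and 8.68 CPM at day 0 (-0.76 ± 0.34). In all 3 regions the groups do not overlap. All 3 losses carry the name of a day 0 library's call, the arm where they are high.

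In the POSR and POS table the listed regions came mostly from POSR. Of 78 regions with a NEG-only site in the POSR and POS table, 63 carry the name of a POSR library's call, and 70 passed the filter on low counts. For the test, the libraries of POSR1 and POSR2 were pooled into a single group, although they are separate populations. Of those 70, 32 were higher in POSR and 10 lower, against 17.5% higher and 18.5% lower over all 53240 tested. The median log2 fold change of the 70 was 1.45, against 0.01 over all regions. All 32 regions that rose were named after a POSR call, so their entry into the table rests on POSR and the count is given as a description of listed regions, with nothing read from it about POSR and POS. Without POS DMSO replicate 1, 19 were higher. With POSR1 and POSR2 as separate groups and their average set against POS, 37 were higher and 14 lower.

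Levels in the 32 stayed low in all but a few. Their POSR means ranged from 2.43 to 85.6 CPM, with a median of 5.45, and the highest value in any POS library was 8.64 CPM. In 30 of the 32, every POSR library was above every POS library. POSR1 and POSR2 were unequal, with the POSR1 mean over 2 times the POSR2 mean in 8 regions and the reverse in another 8.

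The 2 regions that met the naming rule are the highest in level. At chr5:24788812-24789813 H3K27ac was 106 and 125 CPM in POSR1 and 55.3 and 56.2 CPM in POSR2, against 7.83, 8.64 and 7.87 CPM in POS (3.40 ± 0.34, adjusted p = 0.000154 by edgeR). At chr14:82854140-82855141 it was 14.7 and 16.9 CPM in POSR1 and 22.6 and 18.9 CPM in POSR2, against 0.120, 0.785 and 1.06 CPM in POS (4.86 ± 0.43, adjusted p = 9.49e-05 by edgeR). Both POSR populations lie far above POS at both regions.

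Single regions show how POSR1 and POSR2 part, and were singled out after their values were seen. At chr10:36460861-36461862 the level was 1.55 and 0.954 CPM in POSR1 and 13.4 and 13.8 CPM in POSR2, against 0.482, 0.982 and 0.606 CPM in POS. At chr5:25090399-25091400 it was 15.0 and 14.3 CPM in POSR1 and 3.35 and 5.52 CPM in POSR2, against 0.964, 3.53 and 1.36 CPM in POS. In the window of 45 to 46 Mb on chromosome 10, all 3 tested regions were higher, and chr10:45248188-45249189 had 13.8 and 9.90 CPM in POSR1 and 14.1 and 14.1 CPM in POSR2, against 0.482, 1.18 and 1.21 CPM in POS.

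In 24 of the 32 regions the same site also lay in a region of the NEG and POS table, where the NEG mean had a median of 24.9 CPM. The POSR means of these 24 had a median of 5.64 CPM, and lay below the NEG mean in 22. The tables were normalised separately and share the POS libraries, so these levels are set side by side without a test. Sites of 24 of the 32 also lay in a region of the acute NEG table, of which 9 were lower and 9 higher with trametinib, beside 38.6% lower and 19.1% higher of all tested regions with a NEG-only site.

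Of the 10 regions lower in POSR, 9 had their site in a region of the acute NEG table, and 7 of those were lower with trametinib there, in libraries that the POSR comparison does not share. Of all regions tested in the acute NEG comparison 19.3% were lower, and of those with a NEG-only site 38.6%. Only 1 of the 10 carries the name of a POSR library's call, so the rest entered the table through POS, where they are high. The counts therefore describe listed regions, with nothing read from them about POSR and POS. At chr3:45146816-45147817 H3K27ac was 1.40 and 1.31 CPM in POSR1 and 1.91 and 1.97 CPM in POSR2, against 6.50, 6.48 and 6.21 CPM in POS (-1.94 ± 0.27). The POS libraries lie above every POSR library there. With trametinib for 24 hours the same region had 2.41, 2.73 and 2.00 CPM in POS, against 6.77, 6.70 and 6.39 CPM with DMSO, but both comparisons use the same POS DMSO libraries.

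**Figure D4:**
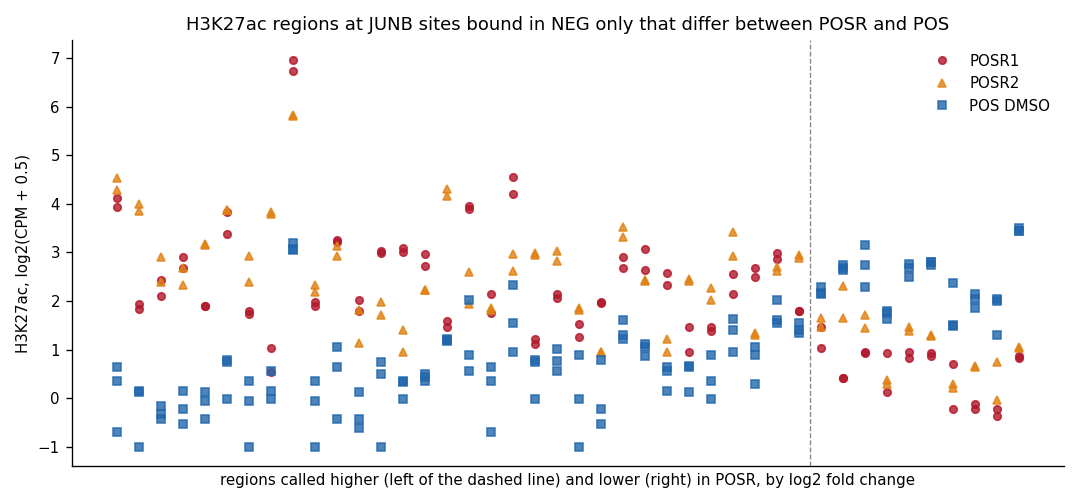
Each column is 1 of the 42 H3K27ac regions at NEG-only JUNB sites called different between POSR and POS, with log2(CPM + 0.5) of every library of POSR1 (red circles), POSR2 (orange triangles) and POS under DMSO (blue squares). Left of the dashed line are the 32 regions higher in POSR, where POS stays at or under 8.64 CPM, and right of it the 10 lower ones.

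The 5 sites inside a region of all 6 tables show responses of different kinds, and are numbered 1 to 5 by JUNB. Site 1, chr5:24789025-24789226, had 32.6 and 39.3 CPM of JUNB in NEG, against 0.335 and 0.614 CPM in POS. Its H3K27ac was 124 and 129 CPM in NEG, against 8.23, 9.39 and 8.27 CPM in POS. It was 164 and 149 CPM with trametinib in NEG, against 143 and 146 CPM with DMSO (0.12 ± 0.09, adjusted p = 0.340 by edgeR), and 183 and 195 CPM at day 14, against 144 and 139 CPM at day 0 (0.42 ± 0.09, adjusted p = 0.000119 by edgeR). The gain of site 1 in POSR is given above. In POS its level was 10.1, 7.35 and 11.0 CPM with trametinib, against 8.28, 8.94 and 7.95 CPM with DMSO, and the groups overlap.

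Site 2, chr12:115593496-115593697, was lower in every trametinib comparison and in POSR. Its JUNB was 28.7 and 19.0 CPM in NEG, against 0.335 and 0.614 CPM in POS. H3K27ac was 26.7 and 26.6 CPM in NEG, against 10.9, 11.5 and 10.7 CPM in POS, so the mark was present in POS at a site with little JUNB there. In POSR it was 1.26 and 1.31 CPM in POSR1 and 1.56 and 1.58 CPM in POSR2, against 10.4, 10.8 and 10.3 CPM in POS (-2.86 ± 0.22). At day 14 in NEG it was 14.2 and 13.9 CPM, against 34.0 and 39.7 CPM at day 0 (-1.37 ± 0.20).

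Site 3, chr10:105610070-105610271, moved in opposite directions in the chronic comparisons. At day 14 in NEG its H3K27ac was 12.6 and 7.21 CPM, against 18.4 and 20.8 CPM at day 0 (-0.99 ± 0.27, adjusted p = 0.00170 by edgeR). At day 14 in POS it was 15.9 and 12.7 CPM, against 6.60 and 4.49 CPM at day 0 (1.31 ± 0.25, adjusted p = 1.81e-06 by edgeR). The groups do not overlap in either, and the difference between the responses was not tested. At 24 hours it was lower in both, at 4.04 and 4.74 CPM with trametinib in NEG, against 12.5 and 11.4 CPM with DMSO, and at 1.48, 2.73 and 2.78 CPM with trametinib in POS, against 6.14, 6.50 and 5.30 CPM with DMSO.

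Site 4, chr11:71673881-71674082, was lower under drug in NEG at both times, with 28.9 and 27.2 CPM with trametinib, against 44.5 and 46.0 CPM with DMSO (-0.69 ± 0.13). In POS the acute values overlap, at 7.78, 8.03 and 11.5 CPM with trametinib and 7.02, 9.95 and 6.39 CPM with DMSO. Site 5, chr12:127769766-127769967, had 17.2 and 19.6 CPM with trametinib in NEG, against 44.7 and 40.6 CPM with DMSO (-1.22 ± 0.14). In POS it had 3.62, 3.59 and 2.45 CPM with trametinib, against 6.39, 6.09 and 5.92 CPM with DMSO (-0.95 ± 0.28). Its POSR1 libraries had 0.843 and 0.835 CPM and its POSR2 libraries 4.43 and 2.63 CPM, against 6.14, 5.89 and 5.75 CPM in POS.

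**Figure D5:**
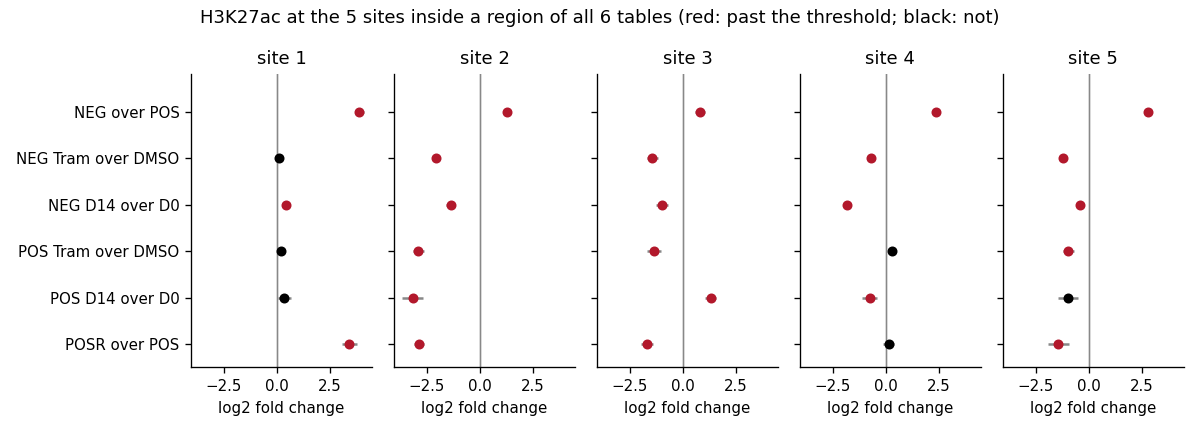
Points are log2 fold changes of H3K27ac, with standard errors as bars, at the 5 NEG-only JUNB sites inside a region of all 6 tables, in red where the adjusted p was under 0.05. Site 2 is lower in every comparison but NEG over POS, and site 3 is higher at day 14 in POS (1.31) and lower at day 14 in NEG (-0.99).

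The authors' deposited tables of DESeq2 results called fewer of these regions under trametinib in NEG. The authors' deposited table for acute NEG had 116 lower and 46 higher of 775, with 91 adjusted p-values missing, beside 11.4% called in either direction over all its regions. The authors' deposited table for chronic NEG had 41 lower and 25 higher of 409, with 8 missing, beside 16.01% over all its regions. In the authors' deposited table for NEG and POS, 650 of the 659 regions were higher in NEG with its sign turned, beside 56.9% called in either direction over all. The authors' deposited table for POSR called 39 higher and 9 lower of all 78 regions, beside 35.8% called over all.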

How the data were processed

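Chromatin immunoprecipitation sequencing gave 22 H3K27ac and 4 JUNB libraries among 36 samples; the 10 inputs were not analysed here. Raw read counts per region were deposited by the authors, per the file headers, with 1861227 to 9212006 counts per H3K27ac library and 4884516 to 8947351 per JUNB library. The authors also deposited log2 fold changes and adjusted p-values from DESeq2. Per the submitters' processing notes, cutadapt 1.12, STAR 2.5.2b, featureCounts, MACS2, DESeq2 and hg19 were used, with no step given.

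Each H3K27ac table was fitted whole with edgeR 4.0.16 in R 4.3.3 (TMM, filterByExpr with a minimum count of 10, quasi-likelihood F-test, Benjamini-Hochberg over all regions tested, adjusted p under 0.05) and no covariate. DESeq2 1.42.0 was an alternative. The standard error is the log2 fold change divided by the square root of F. Replicates correlated at 0.945 to 0.986 (Pearson, log2 counts).

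The members, lists and tests were chosen with earlier results of these data known. Named regions passed the threshold, had CPM values that do not overlap between groups and a mean at or above the median region, and were the first 6 per direction by fold change. Other named regions are said to be chosen after their values were seen. Columns of acute trametinib libraries carry another drug code in their names and were assigned from the table they stand in. Low counts in POS limit what a fold change there can show.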

Additional observations from a re-analysis of the deposited data

Results flagged for a closer look

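The JUNB site chr10:105610070-105610271 had chronic trametinib responses in opposite directions. Its H3K27ac log2 fold change of day 14 over day 0 was -0.985 in NEG and 1.31 in POS, with both day 14 libraries below both day 0 libraries in NEG and both above them in POS. The difference between the 2 responses was not tested, since the tables were normalised separately.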

How the results depend on the processing

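Counts of regions at NEG-only sites kept the direction with more calls in both NEG trametinib comparisons under the alternatives below. A stricter site rule, a NEG mean of at least 10 and a POS mean of at most 0.25 CPM, leaves 119 sites, and by that construction fewer regions. NEG against POS then had 72 higher, acute NEG 42 lower and 15 higher, chronic NEG 18 lower and 6 higher, acute POS 2 lower and 0 higher, and POSR 8 higher and 2 lower, with no region left in chronic POS. Limits met in each JUNB library left 714 sites. DESeq2 called 183 lower and 67 higher in acute NEG, 71 lower and 45 higher in chronic NEG, and 2 higher in acute POS; RLE scaling and total counts each gave 3 higher in acute POS. The cause of these changes was not tested.

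Leaving out 1 library at a time gave 649 to 658 higher in NEG against POS, 251 to 266 lower and 114 to 133 higher in acute NEG, and 108 to 116 lower and 63 to 72 higher in chronic NEG. It gave 6 to 9 lower and 1 to 4 higher in acute POS, 2 to 3 lower and 6 to 10 higher in chronic POS, 7 to 9 lower and 19 to 31 higher in POSR, and 1420 to 2063 JUNB sites. The labels do not say that replicate numbers pair the libraries. Between POS trametinib and POS DMSO, deviations of libraries with the same replicate number correlated at 0.129, 0.382 and -0.0094. Between the other groups these correlations lay between -0.206 and 0.089, and the lowest were those of POSR1 with POS under DMSO (-0.206 and -0.193). With the replicate number as a block, POSR had 15 higher and 4 lower, and the counts of the other comparisons stayed within 1.5 times. The 32 named regions kept direction and side of the threshold in all 302 values under the alternatives. The shallowest libraries were those of NEG at day 14, with 1861227 and 2051968 counts.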
